A study of Homo sapiens with 6 samples.

Results

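Isolated gained H3K27ac regions are stretches of acetylated chromatin that were called after AI-10-49 and had no called DMSO region nearby. They were chosen by the positions in the H3K27ac lists themselves: a region of the AI-10-49 list had to be at least 500 bp wide and to have no region of the DMSO list within 1 kb. Of 66350 regions in the AI-10-49 list, 34286 reached this width, 1661 of those overlapped no DMSO region, and 767 also lay more than 1 kb from the nearest one. These 767 regions made up 2.24% of the AI-10-49 regions of 500 bp or more (exact Clopper-Pearson 95% interval 2.08% to 2.4%) and covered 0.527 Mb of the 52.2 Mb in them. Since this contrast chose the regions, their width, their number against the lost ones, and their signal in either H3K27ac list are descriptions and carry no test.

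The cells were ME-1, an established human leukemia line with inv(16), and every library came from this line. They received either DMSO, the vehicle, or AI-10-49 at 1 µM, each for 6 h, and chromatin was precipitated with antibodies to H3K27ac or RUNX1. The series had 6 libraries, 1 for each antibody and condition and 2 of input DNA, and the 4 peak lists from the precipitated libraries were used. With 1 library each, no difference between conditions could be compared with a replicate spread, so no p-value is given, and the intervals on shares cover the sampling of regions only.

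H3K27ac, acetylation of lysine 27 on histone H3, marks active promoters and enhancers and is laid down mainly by the acetyltransferases p300 and CBP. RUNX1 is a DNA-binding factor of blood cell development that works as a heterodimer with CBFβ. In inv(16) leukemia CBFB is fused to MYH11, and the product CBFβ-SMMHC binds RUNX1 and interferes with its work, a contact that AI-10-49 was designed to disrupt.

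The ChIP depth recovered from the lists was 35.7 M (mega) reads for H3K27ac DMSO and 37.0 M for H3K27ac AI-10-49, and 33.8 M and 31.5 M for RUNX1. For H3K27ac the smaller of ChIP and input, to which peak calling scales, held 34.0 M reads in DMSO and 27.6 M in AI-10-49. The DMSO list held regions with as few as 9 fragments over the summit and the AI-10-49 list with as few as 12. A place without a DMSO region is one where no peak was called. Acetylation below the calling threshold was not analysed here, and the part of depth in the gained and lost counts was not tested.

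The gained regions were narrow and modest in signal. Their median width was 616 bp (quartiles 553 and 746 bp), and only 57 of them (7.43%) reached 1000 bp and 9 reached 1500 bp. Their median fold enrichment at the summit over local background, as the authors' peak caller gave it, was 4.59 (quartiles 3.93 and 5.50). The summit was covered by a median of 25 fragments (21 to 29), and the median −log10 q, the peak caller's adjusted significance, was 6.47 (4.72 to 8.96). The 33519 other AI-10-49 regions of 500 bp or more had medians of 1097 bp, 8.08-fold and 50 fragments, so the gained regions sat at the low end of the list they came from. A −log10 q of 10 or more was reached by 145 gained regions (18.9%) and by 75.8% of the others. Regions near both limits of the rule were alike on either side. The 82 gained regions of 500 to 520 bp had a median fold of 4.35 and 22 fragments, and 105 otherwise eligible regions of 480 bp to just under 500 bp had 4.37 and 21. The 61 gained regions 1 to 1.2 kb from a DMSO region had a median fold of 4.36, and the 72 at 0.8 to 1 kb, just outside the rule, had 4.42.

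**Figure D1:**
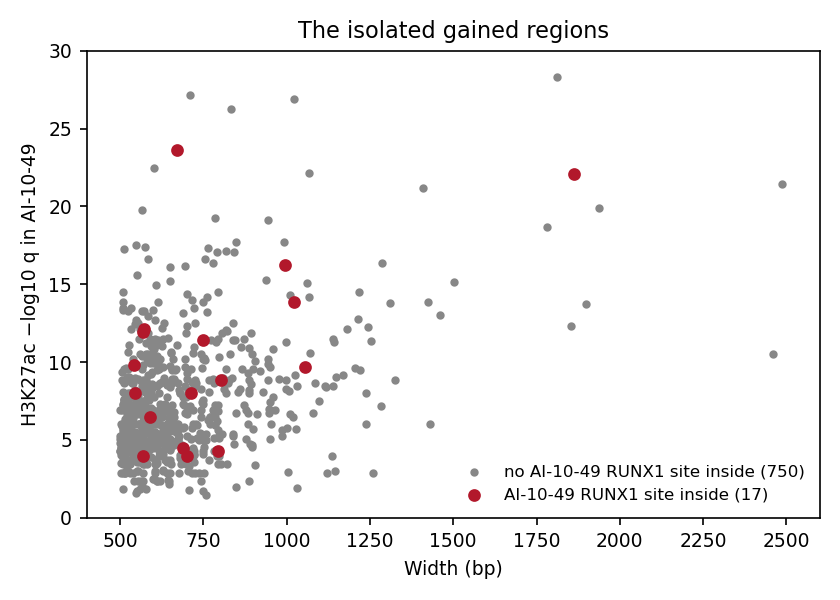
Each point is 1 of the 767 isolated gained regions, with its width in bp on the x axis and its H3K27ac −log10 q after AI-10-49 on the y axis. Most points lie below 1000 bp and below a −log10 q of 10, and the 17 regions with a RUNX1 site inside (red) are spread across widths of 541 to 1861 bp.

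Isolated regions called only in DMSO were more frequent. By the same rule turned round, 2091 of 35847 DMSO regions of 500 bp or more (5.83%, 5.59% to 6.08%) had no AI-10-49 region within 1 kb, and they covered 1.62 Mb. There were thus 0.367 gained regions for each lost one, and the lost regions had a median width of 678 bp, a median fold of 5.15 and 28 fragments. Where DMSO regions were called in both conditions, summit fragments per M reads were also lower after AI-10-49 (median ratio 0.731). The smaller of ChIP and input held 27.6 M reads in AI-10-49 and 34.0 M in DMSO. The part of these differences in the 2 counts was not tested.

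The 10 widest gained regions were spread over 8 chromosomes and measured 1459 to 2486 bp. The widest, chr11:72739194-72741679 (band 11q13.4, hg19), was 2486 bp long with a fold of 6.95, 55 fragments and a −log10 q of 21.4. Its nearest DMSO region lay 16.7 kb away and its nearest AI-10-49 RUNX1 site 51.8 kb away. The second, chr2:28118684-28121142 (2p23.2), was 2459 bp long but weaker, with a fold of 5.27 and a −log10 q of 10.5, the lowest of the 10. A RUNX1 site lay 4.42 kb from it and a DMSO region 3.46 kb from it. Next in width were chr4:129491109-129493045 (4q28.2, 1937 bp) and chr20:10840721-10842620 (20p12.2, 1900 bp), with folds of 9.33 and 6.71. They differ in surroundings: the nearest DMSO region was 51.4 kb from the former and 1.80 kb from the latter.

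The fifth, chr3:23789374-23791234 (3p24.3, 1861 bp), was the only 1 of the 10 widest that held a RUNX1 site. Its H3K27ac fold was 9.98, and the RUNX1 site at chr3:23790213-23790416 had a fold of 5.58 with 18 fragments. Of the remaining regions, chr7:157725025-157726836 (7q36.3, 1812 bp) had the highest fold of all 767, 11, and the highest −log10 q, 28.3. It was also remote, with the nearest DMSO region 77.3 kb and the nearest RUNX1 site 441 kb away. The last 4 were chr3:9451070-9452921 (3p25.3, 1852 bp), chr7:6421618-6423397 (7p22.1, 1780 bp), chr1:31988832-31990333 (1p35.2, 1502 bp) and chr15:63538547-63540005 (15q22.2, 1459 bp). Their folds ran from 6.21 to 7.75, and their −log10 q from 12.35 to 18.7.

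Width and signal did not pick the same regions, since only 3 of the 10 widest were among the 10 with the highest −log10 q (21.2 to 28.3, 41 to 62 fragments, 9 chromosomes). The second highest was chr18:67902252-67902960 (18q22.2), with a −log10 q of 27.2 in 709 bp. The third, chr8:131335926-131336946, lay in 8q24.21, the band that also holds MYC, and had a fold of 9.15, 55 fragments and a −log10 q of 26.9. Its distance to MYC was not analysed here. The fourth, chr19:55836323-55837154 (19q13.42), had 62 fragments, more than any other gained region but 1. That exception, chr17:41400428-41401219 (17q21.31), had 175 fragments but a fold of only 1.71, since its local background was 35.4 times the lowest. A local background above 5 times the lowest was found at 4 gained regions. Other top regions were chr17:43406999-43407670 (17q21.31, fold 10.05, with a RUNX1 site inside), chr2:38373339-38374406 (2p22.2, fold 10.04) and chr22:20873793-20875200 (22q11.21, fold 7.65). The region in 2p22.2 was 220 kb from any DMSO region.

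Most gained regions lay close to chromatin that was already acetylated. The median gap to the nearest DMSO region was 3.90 kb (quartiles 1.83 and 10.3 kb), with 205 regions (26.7%) within 2 kb and 572 (74.6%, 71.3% to 77.6%) within 10 kb. Lost regions were more remote from the AI-10-49 list, with a median gap of 10.5 kb and 49.0% within 10 kb. DMSO regions lay within 10 kb on both sides of 244 gained regions (31.8%), on 1 side of 328 (42.8%) and on neither side of 195 (25.4%), against 14.5%, 34.4% and 51.0% for AI-10-49 regions around the lost ones. The rule sets only the first kilobase of these gaps. Of the DMSO regions nearest to a gained one, 83.6% overlapped an AI-10-49 region, compared with 71.0% of all 67087 DMSO regions. Another AI-10-49 region lay within 1 kb of 321 gained regions (41.9%, 38.3% to 45.4%), less often than for the other regions of the width (69.1%, 68.6% to 69.6%). The rule bears on this order, because it bars DMSO regions from that range. Only 13902 of the 66350 AI-10-49 regions overlapped no DMSO region. Within 10 kb the shares were 82.5% (79.7% to 85.2%) and 86.8% (86.4% to 87.1%).

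Acetylated regions beside the gained ones had higher ratios of AI-10-49 to DMSO signal than those elsewhere. In DMSO regions of 500 bp or more that were called in both conditions, the ratio of summit fragments per M reads, AI-10-49 over DMSO, had a median of 0.731 over 32740 regions (quartiles 0.579 and 0.941). Within 10 kb of a gained region the median was 0.871 (0.714 to 1.195, 811 regions), within 50 kb it was 0.824, and beyond 50 kb it was 0.724. Within 10 kb of a lost region it was 0.627 (1431 regions). The quartile ranges of these sets overlapped widely. The ratios come from the same 2 libraries as the rule, carry no replicate error and are not corrected for fragment length, which was 1.09 times as long in the AI-10-49 library.

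A few gained regions stood in chromatin without called DMSO acetylation over long stretches. A gap above 100 kb was found for 10 regions (1.3%, 0.627% to 2.38%), against 8.42% of the lost regions. The most remote, chr1:49083210-49083716 (1p33), was 1179.5 kb from a DMSO region, was 507 bp wide and had a fold of 4.16. An AI-10-49 RUNX1 site with a fold of 7.08 ended 0.016 kb from it, without overlap. The next were chr5:129721506-129722028 (5q23.3, 633 kb), chr6:152415842-152416474 (6q25.1, 596 kb), chr3:148036905-148037410 (3q24, 542 kb) and chr8:102713308-102713940 (8q22.3, 324 kb). Among these, the region in 6q25.1 was the strongest with a fold of 7.19, and a RUNX1 site lay 4.98 kb from it, while the other 3 were 495 kb or more from any RUNX1 site.

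Gained regions occurred on every chromosome but Y, where 0 of 22 regions of the width qualified. Chromosome 1 had most, 75. Relative to the AI-10-49 regions of the width, 3 chromosomes lay above the genome's 2.24% by their intervals. These were chromosome 20 with 40 of 1075 (3.72%, 2.67% to 5.03%), chromosome 11 with 63 of 1948 (3.23%, 2.49% to 4.12%) and chromosome 3 with 64 of 2207 (2.90%, 2.24% to 3.69%), whose lower bound only just cleared it. Another 3 lay below it: X with 6 of 863 (0.695%, 0.256% to 1.51%), chromosome 9 with 10 of 989 (1.01%, 0.486% to 1.85%) and chromosome 16 with 16 of 1225 (1.31%, 0.748% to 2.11%). The other 18 intervals held 2.24%. The number of gained per lost region, which shares its numerator with these shares, was highest on chromosomes 11 (0.70), 20 (0.667) and 12 (0.60) and, Y aside, lowest on X (0.0968) and chromosome 9 (0.109). It did not follow the shares throughout: chromosome 19 had 0.50 gained per lost region with a gained share of only 1.84%. Neighbouring regions are not independent, so these intervals are narrower than they should be, and they were not adjusted for the number of chromosomes.

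**Figure D2:**
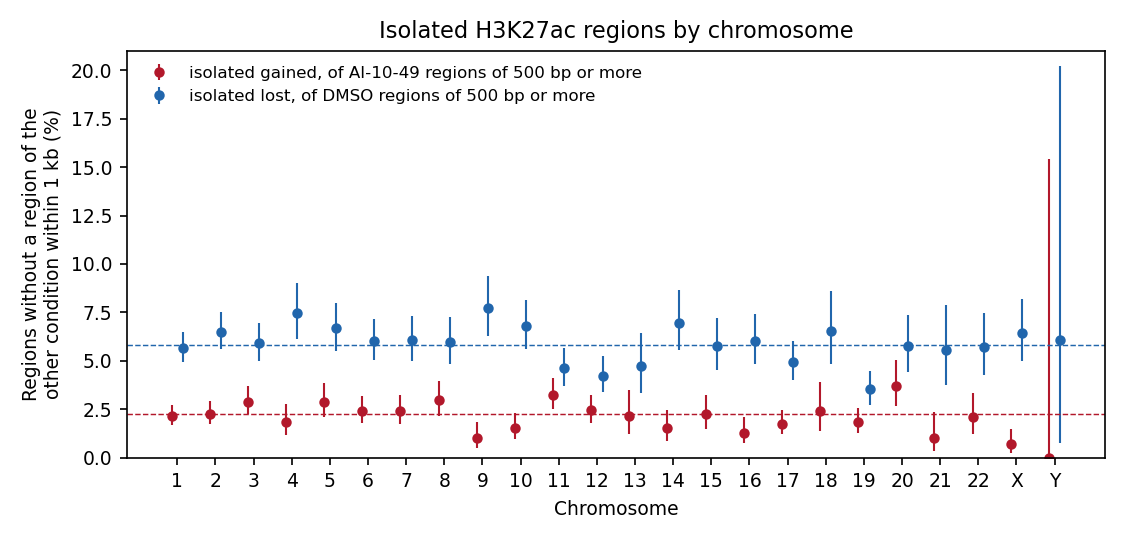
The y axis gives the percentage of regions of 500 bp or more that had no region of the other condition within 1 kb, by chromosome, with exact 95% intervals as bars, for isolated gained (red) and isolated lost (blue) regions. Dashed lines mark 2.24% and 5.83% over all chromosomes; the red points of chromosomes 20 and 11 lie above their line, and those of X and chromosome 9 below it.

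By cytoband the spread was thin. Gained regions fell in 357 of the 786 bands that held an AI-10-49 region of the width, 182 of them with 1 gained region and 39 with 5 or more. The band with most was 20q13.13, where 12 of 120 regions (10%) were gained and 0 were lost. This band holds CEBPB, which encodes a transcription factor of myeloid differentiation, but no region was assigned to a gene here. Band 11q13.4 had 11 of 155 (7.10%) and 1 lost. Another 3 bands had 8 each. In 3q22.3, the band of PIK3CB (a catalytic subunit of phosphoinositide 3-kinase), the 8 were 14% of only 57 regions. All 8 lay in a single stretch of 98.7 kb, the longest run described below. In 11q13.4 and 20q13.13, 5 and 4 of the gained regions lay in single stretches of 11.6 and 5.18 kb. Band counts are therefore not counts of separate places. In 11p13, the band of LMO2 (a cofactor of haematopoietic transcription factors), 8 of 140 were gained and 8 others lost. In 5q31.1, the band of IL3 (a cytokine of blood progenitors), 8 of 132 were gained and 13 lost, so a high gained count there did not come with a low lost count.

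Bands with many gained regions had a somewhat higher ratio in the acetylation that both conditions shared. In the 38 bands with 5 or more gained regions and at least 50 AI-10-49 regions, the median of the fragment ratio was 0.789, compared with 0.709 in the 60 such bands with none. The bands were grouped by the same 2 libraries that gave the ratio, so this is a description and not support. The groups also differed in size, with medians of 114.5 and 64.5 AI-10-49 regions of the width.

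The bands of 4 genes from the study's biology together held 6 gained regions of 328 of the width (1.83%, 0.674% to 3.94%), an interval that holds the 2.24% of the genome. In 8q24.21, the band of MYC, 4 of 76 regions were gained (5.26%, 1.45% to 12.9%, which also holds 2.24%) and 3 lost. Besides the strong region named above, these were chr8:129985926-129986622 and chr8:131014330-131015132, each with a fold of 3.02, and chr8:131325847-131326507 with 4.23. The band of RUNX1, 21q22.12, had 1 of 82, chr21:36213607-36214164, with a fold of 3.93 and a RUNX1 site 23.6 kb away. The band of MYH11, 16p13.11, had 1 of 43, chr16:16070612-16071120, with a fold of 6.82, and the band of CBFB, 16q22.1, had 0 of 127, with 6 lost.

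Most gained regions stood alone, but they followed each other more often than their share of the list. The median gap from a gained region to the nearest other one was 1026.7 kb, and 185 of 767 (24.1%, 21.1% to 27.3%) had another within 50 kb, 57 of them within 1 kb. The same share was 32.0% among the lost regions and 91.7% among the other AI-10-49 regions of the width, sets that hold more regions and are therefore denser. When gained regions up to 50 kb apart were joined into runs, 666 runs resulted, of which 84 had at least 2 regions and 7 had at least 3. Along the chromosome, the next AI-10-49 region of the width after a gained one was also gained in 64 of 766 cases (8.36%, 6.49% to 10.5%), compared with the 2.24% of all such regions that were gained. Lost regions followed each other in 15.7% of cases against 5.83% overall. Adjacent regions can be pieces of a single acetylated stretch that the caller split. Regions in the same gap between DMSO regions can also meet the rule together, so the rule bears on these shares. Neither part was measured, and neighbouring regions are not independent, so these shares are descriptions and not support for clustering.

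The longest run was in 3q22.3, chr3:138448157-138546860, with 8 gained regions over 98.7 kb. Its members were 531 to 795 bp wide, with folds of 2.90 to 7.67, and the span held 37 AI-10-49 and 21 DMSO regions of any width. Of these 21 DMSO regions, 12 overlapped an AI-10-49 region and 9 did not. All 9 were narrower than 500 bp, so none of them was a lost region by the rule. No RUNX1 site lay in the span, and the nearest was 6.56 to 104 kb from the members. The second run, chr11:72428886-72440478 (11q13.4), had 5 regions in 11.6 kb with 1 DMSO region among them and folds of 2.88 to 4.06. An AI-10-49 RUNX1 site, chr11:72433237-72433579 with a fold of 5.86, lay between its members, 1.71 to 6.23 kb from each and inside none.

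The most compact of the 5 longest runs was chr20:47899660-47904835 (20q13.13), with 4 regions in 5.18 kb and no DMSO region or RUNX1 site in the span. Its last member was 1287 bp wide with a −log10 q of 16.4, while the other 3 had 3.97 to 5.08. The remaining runs were chr10:81057709-81113048 (10q22.3, 4 regions in 55.3 kb, 4 DMSO regions and 2 RUNX1 sites in the span) and chr1:44972601-44992352 (1p34.1, 4 regions in 19.8 kb, 3 DMSO regions and 0 RUNX1 sites). None of the members of these 5 runs held a RUNX1 site.

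**Figure D3:**
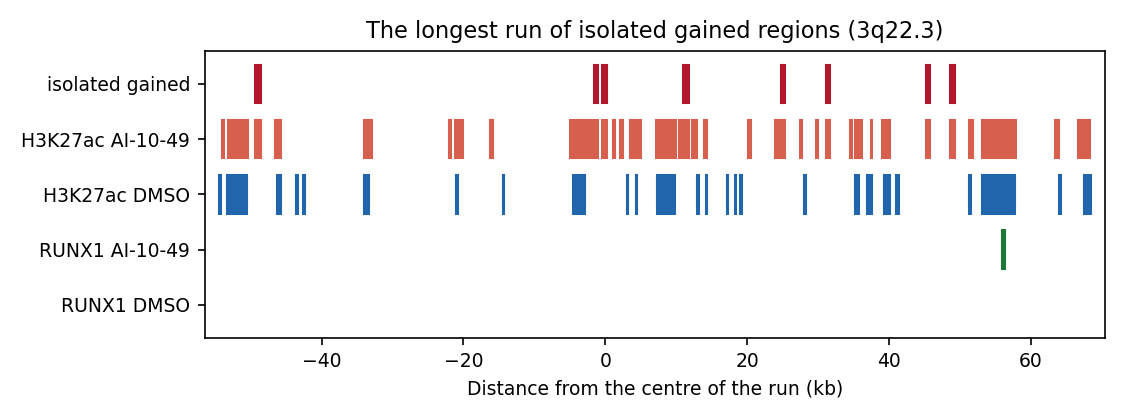
The map shows the called regions around the longest run, in 3q22.3, by distance from the centre of the run in kb, with 1 row for the isolated gained regions and 1 for each of the 4 lists. The 8 isolated gained regions overlap no DMSO region, some DMSO regions have no AI-10-49 counterpart, and the single RUNX1 site in the window lies outside the run.

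RUNX1 sites were rare inside the gained regions. A site of the AI-10-49 RUNX1 list, which held 10319 sites, overlapped 17 of 767 (2.22%, 1.3% to 3.53%), whereas 23.5% of all AI-10-49 regions of the width and 8055 of the 33519 others (24.0%, 23.6% to 24.5%) had one. Lost regions had one in 115 of 2091 cases (5.50%, 4.56% to 6.56%), also above the gained regions by their intervals. Sites of the DMSO RUNX1 list, with 1701 sites, overlapped 3 gained regions (0.391%, 0.0807% to 1.14%), compared with 3.35% of all regions of the width. The rule bears on these shares, because 9270 of the 10319 AI-10-49 RUNX1 sites (89.8%) overlapped a DMSO H3K27ac region, from which the gained regions are kept apart by at least 1 kb. Only 743 sites lay more than 1 kb from every DMSO region. Of these, 17 were in a gained region, 51 in an AI-10-49 region under 500 bp, and 676 (91.0%) in no AI-10-49 region, with 1 site counted in both of the first sets.

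The RUNX1 share was mostly lower among regions of like width and signal too. Matching on these does not remove the rule's bar on DMSO regions, in which most RUNX1 sites lay. The rule therefore bears on the order here as well, by an amount that was not measured, and this comparison is not separate support. In 8 classes of like width and −log10 q with at least 10 regions of each kind, the gained share was lower in 7. Over these classes 2.01% of 745 gained regions had a RUNX1 site, compared with 5.72% for the others weighted to the same class sizes. The largest class, 500 to 749 bp with a −log10 q of 5 to 10, had 4 of 310 (1.29%, 0.353% to 3.27%) against 4.85% (4.19% to 5.59%). At the same width and a −log10 q of 10 to 20 the shares were 4% (0.833% to 11.2%) and 13% (11.8% to 14.3%). In the other 6 classes the intervals overlapped, and in regions of 750 to 999 bp with a −log10 q under 5 the order was turned (3.85% against 3.31%).

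**Figure D4:**
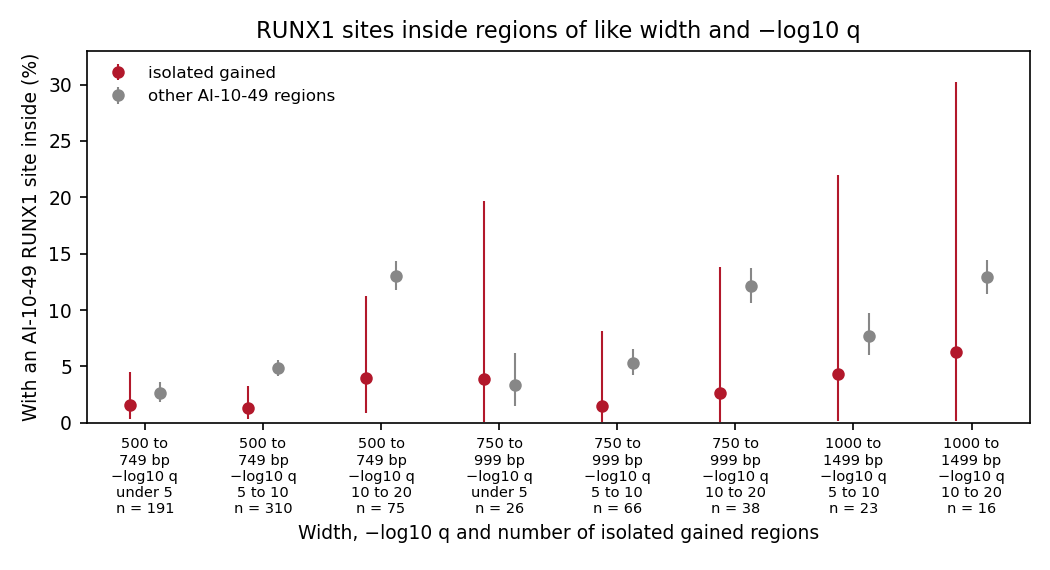
For 8 classes of width and −log10 q, given with the number of isolated gained regions under each, the y axis shows the percentage with an AI-10-49 RUNX1 site inside for isolated gained (red) and other AI-10-49 regions (grey), with exact 95% intervals. The red points lie below the grey in 7 classes, and the intervals part in 2 of them. The classes do not remove the rule's bar on DMSO regions near the red points.

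Gained regions were farther from RUNX1 than other acetylated regions at short range, but at 100 kb the shares met under the 1 kb margin. At overlap and within 1 kb the rule bears on this order, by an amount that was not measured. The rule clears that range of DMSO regions, in which most RUNX1 sites lay. Shares at longer range are cumulative and include that first kilobase. The median distance to the nearest AI-10-49 RUNX1 site was 23.6 kb (quartiles 7.65 and 71.7 kb), compared with 15 kb for the others and 48.2 kb for the lost regions. A site lay within 1 kb of 23 gained regions (3%) and within 10 kb of 230 (30%, 26.8% to 33.4%), against 27.6% and 44.5% of the others. Within 100 kb the shares were 81.9% (79.0% to 84.5%) and 82.8% (82.4% to 83.2%), while 67.3% of the lost regions had a site that near. With a 5 kb margin the shares within 100 kb did not meet, at 74.5% of 330 gained regions and 82.9% of the others. Among regions without a site inside, the order depended on the range. Within 1 kb a site was found for 6 of 750 gained regions (0.80%, 0.294% to 1.73%) and 4.70% of the others. Within 10 kb the shares were 28.4% (25.2% to 31.8%) and 27%, and within 100 kb they were 81.5% (78.5% to 84.2%) and 77.4%. Only 14 gained regions (1.83%) were beyond 500 kb of any site.

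**Figure D5:**
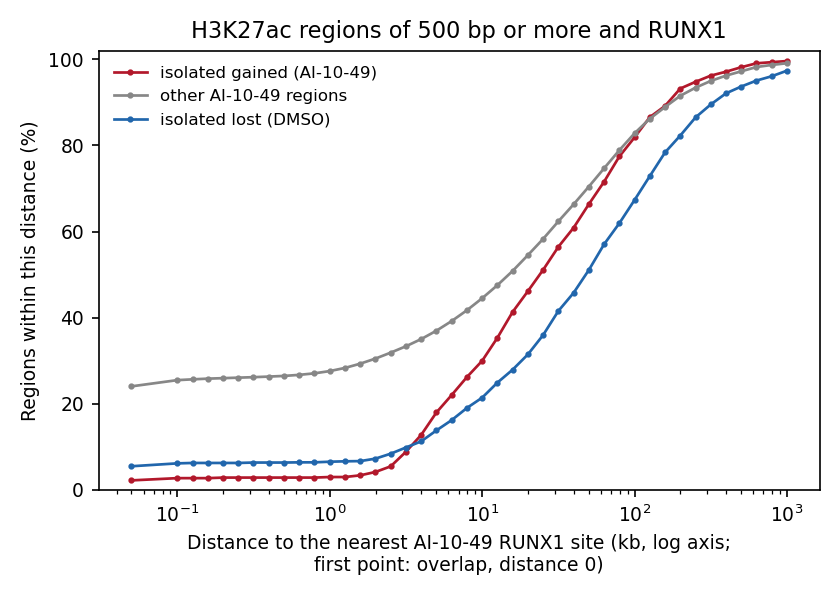
The lines give the cumulative percentage of isolated gained (red), other AI-10-49 (grey) and isolated lost (blue) regions of 500 bp or more within a given distance, in kb on a log axis, of an AI-10-49 RUNX1 site, and the first point is overlap. The red line starts at 2.22% and stays flat to about 1 kb, the range that the rule clears of DMSO regions. It joins the grey line by 100 kb, at 81.9% and 82.8%.

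The nearest sites were mostly absent from the DMSO RUNX1 list. For 681 gained regions (88.8%, 86.3% to 90.9%) the nearest AI-10-49 site overlapped no DMSO site, the same within sampling as for the others (88.3%). Of all sites in the AI-10-49 RUNX1 list, 85.1% had no DMSO counterpart. The median distance to the DMSO list was 302 kb for gained and 313 kb for other regions.

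The 17 gained regions with a RUNX1 site were spread over 10 chromosomes, and 14 of their sites were in the AI-10-49 RUNX1 list only. Their H3K27ac folds ran from 3.01 to 10.05. The highest RUNX1 −log10 q, 72.8, was at chr16:27441341-27442396 (16p12.1), where a site with a fold of 19.1 and 87 fragments overlapped the edge of a region with an H3K27ac fold of 5.93. The second, 60.4, was at chr5:135356261-135357009 (5q31.1), with a RUNX1 fold of 19.01 and an H3K27ac fold of 6.21, 15.4 kb from a DMSO region. Another gained region of 5q31.1, chr5:131596657-131597226, held a weaker site with a fold of 5.14.

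At 3 of the 17 regions the site was also in the DMSO RUNX1 list. These were chr5:139631356-139632376 (5q31.3), chr12:94656802-94657342 (12q22) and chr7:2001291-2002085 (7p22.3), with RUNX1 folds after AI-10-49 of 11.4, 13.5 and 12.2. They were 8.865, 17.6 and 20.5 kb from a DMSO H3K27ac region, so RUNX1 was called there in DMSO without called acetylation. The other regions among the 10 highest were chr12:52426998-52427993 (12q13.13), chr8:61648329-61649016 (8q12.2), chr13:42362730-42363442 (13q14.11), chr3:183230493-183231295 (3q27.1) and chr8:23366377-23366946 (8p21.2). Their RUNX1 folds ran from 6 to 11.3. Over all 17 regions the RUNX1 and H3K27ac summits were 0.053 to 0.95 kb apart, with a median of 0.3 kb. The 10 strongest RUNX1 sites were not in the 2 gained regions with the highest H3K27ac −log10 q among the 17 (23.6 and 22.07). Those 2 had RUNX1 folds of 6.11 and 5.58. The H3K27ac −log10 q was 4.29 to 16.2 for the 10 and 3.97 to 12.1 for the rest of the 17. No general order is drawn from these values.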

How the data were processed

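H3K27ac and RUNX1 ChIP-seq lists of ME-1 cells in DMSO or AI-10-49 were used, 1 library each; reads were 50 bp, per the labels. Tools and build named in the submitters' processing notes are MACS2 2.1.0, Bowtie2 2.1.0, Picard 1.96, SAMtools 1.3, CASAVA 1.4 and hg19, without roles. The input behind each call was not given in the sources used here. The deposited ratio per peak is the authors' fold enrichment at the summit. The deposited −log10 p and −log10 q are theirs too, and the deposited score was not used. The lowest −log10 q (1.31 to 1.36) is that of a q threshold of 0.05.

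Whole summit fragment numbers and depth were recovered from fold and −log10 p (100% of peaks to within 0.003; depth assumes a genome of 2700000000 bp). On simulated lists 100% were exact, and overlaps did not differ from bedtools 2.31.1. Overlap means at least 1 bp; gaps are the bases between intervals; positions are 1-based hg19. Shares carry exact Clopper-Pearson intervals (95%). Cytobands came from circlize 0.4.16. The gene tables at hand are of GRCh38.p14, so exon or intron placement, sequence and motifs of the regions were not analysed here, and a gene named with a band is background. Software was Python 3.11.15 (scipy 1.17.1, pandas 2.3.3, numpy 2.4.6, matplotlib 3.10.9).

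The regions, lists and alternatives were chosen with earlier results of these data known. Named regions were the 10 widest, the 10 with the highest −log10 q, the 5 farthest from a DMSO region, the 10 with a RUNX1 site of highest −log10 q, the 5 runs and 5 bands with most members (ties included), and the bands of CBFB, MYH11, MYC and RUNX1. Of these, 1 band and 1 region are not reported here. The region with 175 fragments, the second region of 5q31.1 with a RUNX1 site and the comparison within the 17 were chosen after their values were seen.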

Additional observations from a re-analysis of the deposited data

How the results depend on the processing

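No paired analysis was possible because there was only 1 library for each antibody and condition. Of 48 alternatives, 23 left a value within its interval (a count within 1.5 times) and 25 moved it. The number of gained regions, 767, became 1661 with no overlap as the only condition, 330 with a 5 kb margin, 2955 from 300 bp and 57 from 1000 bp. Gained per lost region fell from 0.367 to 0.233 with the 5 kb margin and to 0.166 from 1000 bp. The median gap to a DMSO region, 3.90 kb, became 0.827 kb with no overlap only, 12.3 kb with 5 kb, 3.46 kb from 1000 bp and 4.90 kb after regions up to 1 kb apart were merged. The share with another gained region within 50 kb, 24.1%, became 42.8% with no overlap only, 10.3% with 5 kb, 50.3% from 300 bp, 0% from 1000 bp and 17.3% at a −log10 q of at least 5; it was 16.4% within 20 kb and 31.4% within 100 kb. The share with a RUNX1 site inside, 2.22%, became 3.94% with 5 kb, 5.26% from 1000 bp, and 0.522% when the AI-10-49 RUNX1 list was shortened to the length of the DMSO list. The median RUNX1 distance, 23.6 kb, became 18.5 kb with no overlap only, 42.4 kb with 5 kb, 15.2 kb from 1000 bp, 29.96 kb after merging and 281 kb with the shortened list. Shorter lists, wider margins and fewer regions change many of these values by construction. The rise of the RUNX1 share with the 5 kb margin is not fixed in that way, and its cause was not tested. In all 9 settings compared, the main one included, the RUNX1 share of gained regions was below that of the others (for example 5.26% against 33.8% from 1000 bp). Every setting kept gained regions off DMSO regions, where most RUNX1 sites lay. The rule thus bears on that order by an amount that was not measured, and the order's recurrence is not a test of it. The share within 100 kb of RUNX1 fell to 74.5% against 82.9% with the 5 kb margin.

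Whether a gained region recurs in a second library was not tested. The lists hold no values between peaks, so DMSO signal under the gained regions was not analysed here.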
